A study of Mus musculus with 10 samples.

Results

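The Kruppel-like factors (Klf) are zinc finger transcription factors, and 10 members of the family were followed here through RNA sequencing of mouse embryonic stem cell (ESC) lines. The 10 genes, Klf2, Klf3, Klf4, Klf5, Klf6, Klf7, Klf9, Klf10, Klf13 and Klf16, were taken by name from the 20206 genes in the table. Other Klf genes in the table are not among the 10 and are described after them. All 10 members passed the filter on low values, an average value of 10 or more across all lines, which left 14354 genes to be tested. The lines came from blastocysts of C57BL/6 mothers fed a low protein diet (LPD, 9% casein) or a normal protein diet (NPD, 18% casein) of equal calories from mating to embryonic day 3.5. All lines are labelled wild-type, male and C57BL/6, and according to the methods each came from a different mother. They were derived on fibroblast feeders in medium with serum replacement and leukemia inhibitory factor (LIF), and the RNA was taken from cells grown without feeders. There were 5 LPD lines, numbered 1, 4, 6, 20 and 40, and 5 NPD lines, numbered 8, 15, 21, 36 and 51, and values are listed below in that order. Because the diet was given to the mother and had ended before the lines were made, the comparison asks what differs between lines that share a culture medium but not a maternal diet.

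Klf proteins bind GC-rich and CACCC-type DNA through zinc fingers at their carboxyl end, while the rest of the protein decides whether a target is activated or repressed. In mouse ESCs, Klf2, Klf4 and Klf5 act together with Oct4, Sox2 and Nanog to keep the cells self-renewing, and they can partly stand in for each other. Klf4 is a target of LIF and Stat3 signalling, Klf2 is linked to the ERK5 and Mef2 pathway, and both fall as cells leave the naive state.

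Each value is a normalized estimated count per gene. Line totals were 16398672 to 18324979 of these units, and the depth behind them, in read equivalents, was 20454574 to 23180417 in the NPD lines and 5808295 to 24112905 in the LPD lines, with line 4 the shallowest. The labelled sex did not hold equally in all lines. The Y-linked gene Ddx3y had 1110 to 1493 in 8 lines, but 174 in LPD line 4 and 7.70 in NPD line 15, and in NPD line 15 the median X-linked gene lay 0.49 above its median over the lines on the log2 scale. None of the 10 Klf genes is X- or Y-linked, and the median gene on each of their chromosomes stayed between -0.03 and 0.05 in every line. The ESC label held for the markers: the summed level of 10 ESC genes was 102223 to 134111 in LPD lines and 97768 to 133211 in NPD lines, with 5 of the 10 higher and 5 lower in LPD and none at an unadjusted p under 0.05. Of 12 fibroblast genes, Dcn, Lum, Postn and S100a4 were each listed at 0 in at least 1 line, and the summed level was 13570 to 20557 in LPD and 13594 to 21955 in NPD lines, with 1 of 10 tested genes higher and 9 lower in LPD (median log2 fold change -0.87, from -1.39 without LPD line 6 to -0.03 without NPD line 15). Most of that sum was Fn1, and the collagen gene Col1a1 had 1704 in LPD line 6 and 1016 and 2709 in NPD lines 8 and 15, against 131 to 534 in the other lines. The summed level of 9 primitive endoderm genes ranged from 3501 to 21789 in LPD and from 2235 to 16137 in NPD lines, with all 9 higher in LPD (median 0.49, from 0.04 without NPD line 15 to 0.85 without LPD line 6) and Foxa2 listed at 0 in NPD line 15. For 9 trophectoderm genes it was 3374 to 11052 and 3160 to 6647, with LPD line 6 the highest, and 5 of 8 tested genes were higher and 3 lower (median 0.16, from -0.14 without LPD line 6 to 0.37 without NPD line 8). No gene of these 4 marker lists had an unadjusted p under 0.05, and the part of other cell types in the Klf values was not tested.

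Between the diets, Klf5, Klf6 and Klf9 had the highest values relative to NPD, and in each of them 4 of the 5 LPD lines stood above every NPD line while LPD line 40 did not. Klf2, Klf4, Klf13 and Klf16 were lower in LPD by less than their spread, and Klf3, Klf7 and Klf10 were higher by less than theirs. No Klf gene passed adjustment over all genes tested (limma, Benjamini-Hochberg), and neither did any other gene: 0 of 14354, or 0%, had an adjusted p under 0.1. At an unadjusted p under 0.05 there were 721 genes, or 5.02% of those tested, 408 higher and 313 lower in LPD, so 56.6% were higher, and 40.2% were once the lines had been set to equal totals. Among the Klf genes, 3 of 10 had an unadjusted p under 0.05, all higher in LPD, where 2.84% of all tested genes did so and 2.18% were lower. This count was 2 with equal totals, without a trend, without LPD lines 1, 4, 6 or 20 or NPD lines 36 or 51 in turn, and without LPD line 4 and NPD line 15 together. The median log2 fold change of the 10 was 0.16, with 6 higher and 4 lower, beside a median of 0.00 and 50.5% higher over all genes tested. At least 4 LPD lines above every NPD line were found for 3 of the 10 and for 3.09% of all genes. In RNA from whole cultures, fewer cells of a type and less RNA per cell cannot be told apart.

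**Figure D1:**
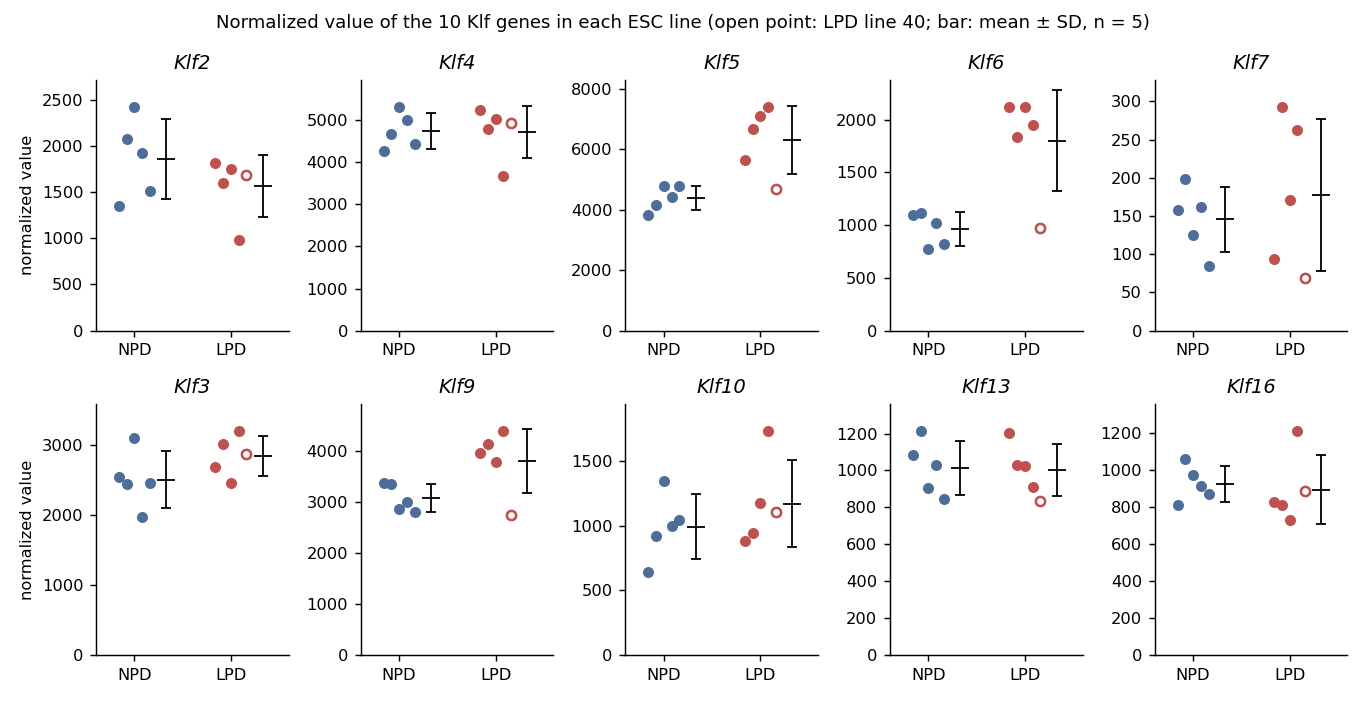
Normalized value (linear axis from 0) of each Klf gene in the 5 NPD lines (blue) and the 5 LPD lines (red), with the mean ± SD of each diet as bars. LPD line 40, the open point, lies among or below the NPD lines for Klf5, Klf6 and Klf9, while the other LPD lines lie above all of them.

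Levels of different genes were compared per kilobase of annotated exon, as normalized value per kilobase over the 10 lines. Klf4 was the most abundant at 1553 ± 165 (SD, n = 10), followed by Klf5 at 1029 ± 247 and Klf2 at 928 ± 215. Klf4 exceeded Klf5 in 9 of 10 lines, but Klf5 exceeded Klf2 in only 6. By this length the order of the Klf2 and Klf5 means differed by diet. In NPD lines Klf2 had 1007 ± 234 and Klf5 845 ± 78.3 per kilobase, and in LPD lines Klf2 had 849 ± 182 and Klf5 1213 ± 216 (SD, n = 5 each). Klf9 came next at 715 ± 124 and stood below Klf2 in 9 lines. A middle group held Klf16 at 340 ± 52.8, Klf6 at 315 ± 126, Klf10 at 258 ± 70.5 and Klf3 at 238 ± 33.6, where each gene exceeded the next in only 6 or 7 lines. By this length Klf6 had the highest mean of this group in LPD lines, at 410 ± 109 (SD, n = 5). In NPD lines its mean was 219 ± 36.1 (SD, n = 5). That was below Klf3, at 223, by less than the spread, so Klf6 and Klf3 were not set apart there. Klf13, at 134 ± 18.0, was below Klf3 in 10 of 10 lines, and Klf7, at 19.9 ± 9.12, was below Klf13 in 10 of 10. With the length of the longest transcript in place of all exons, Klf5 and Klf4 changed places at 1597 and 1563. Klf3, with 9 annotated transcripts, stood at 513. By that length Klf5 lay above Klf2 in both diets, and Klf3 lay above Klf6 in LPD lines. The orders by diet given above therefore depend on the length chosen. The 3 factors tied to self-renewal had the highest mean values per kilobase by either length.

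**Figure D2:**
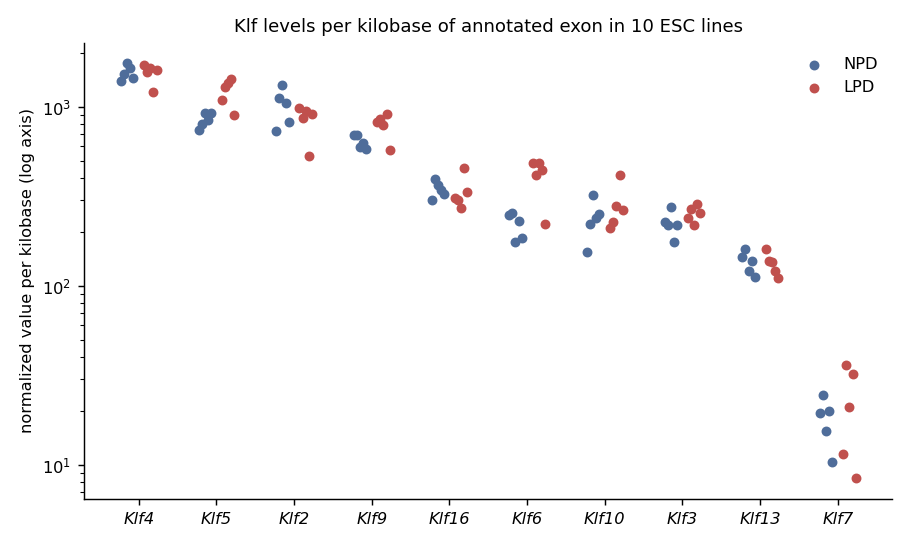
Normalized value per kilobase of annotated exon (log axis) for the 10 Klf genes in NPD lines (blue) and LPD lines (red), ordered by their mean over all lines. Klf4, Klf5 and Klf2 lead, and Klf7 lies below every other gene in every line.

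Of the self-renewal factors, only Klf5 had an unadjusted p under 0.05 (limma) between the diets. Klf4, which can help reprogram somatic cells to pluripotency, lies on chromosome 4 (55527143 to 55532466, minus strand, GRCm38). Its normalized values were 5247, 4782, 5024, 3665 and 4923 in the LPD lines and 4271, 4671, 5325, 5013 and 4434 in the NPD lines. The diets overlapped almost fully, and LPD line 20 alone was lower than every NPD line. The means were 4728 ± 618 in LPD lines and 4743 ± 429 in NPD lines (SD, n = 5 each), with a log2 fold change of -0.01 ± 0.11 (SE, p = 0.929 by two-sided exact permutation). Leaving out LPD line 20 turned the sign, to 0.08, as did leaving out NPD line 21 (0.03) or NPD line 36 (0.01).

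Klf2 (chromosome 8, 72319033 to 72321656, plus strand) had 1819, 1601, 1752, 985 and 1682 in the LPD lines and 1354, 2077, 2428, 1927 and 1514 in the NPD lines. NPD lines 15, 21 and 36 stood above every LPD line, and LPD line 20 stood below every NPD line. The mean was 1568 ± 336 in LPD lines against 1860 ± 433 in NPD lines (SD, n = 5 each). The log2 fold change of -0.25 ± 0.19 (SE) was within the spread between lines (p = 0.317 by two-sided exact permutation), and was -0.09 without LPD line 20.

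Klf5, which acts in the early embryo as well as in ESCs, lies on chromosome 14 (99298691 to 99315036, plus strand). Normalized values of 5664, 6688, 7097, 7415 and 4679 were found in the LPD lines, against 3839, 4166, 4795, 4406 and 4772 in the NPD lines. LPD lines 1, 4, 6 and 20 lay above all NPD lines, and LPD line 40 lay between NPD lines 36 and 51. The mean was 6309 ± 1125 in LPD lines and 4396 ± 407 in NPD lines (SD, n = 5 each), 1.42-fold from the means of log2(value + 1). The log2 fold change was 0.51 ± 0.12 (SE, p = 0.0238 by two-sided exact permutation), and the smallest p that 5 against 5 lines can give is 0.00794. Over all genes the adjusted p was 0.451 (limma, Benjamini-Hochberg), and over the alternatives it ran from 0.0509 to 1.000. The lowest of these came without LPD line 40, where the log2 fold change was 0.61 ± 0.10 (SE). That line was the lowest LPD line for Klf5, so the rise follows from leaving it out. Leaving out LPD line 4 and NPD line 15, whose Ddx3y was low, gave a log2 fold change of 0.46. A transcript of Klf5 and a transcript of Klf6 are in the study's own list of changed transcripts, which was made from these same lines, so their direction here is not independent evidence.

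Within a line, the balance of the self-renewal factors does not depend on how the line was scaled. Log2 Klf5 minus log2 Klf4, both as normalized values, was 0.11, 0.48, 0.50, 1.02 and -0.07 in the LPD lines and -0.15, -0.16, -0.15, -0.19 and 0.11 in the NPD lines. Its mean was 0.41 ± 0.42 in LPD lines and -0.11 ± 0.12 in NPD lines (SD, n = 5 each), and it was highest in LPD line 20. These values are not set per length, so a difference above 0 does not mean that Klf5 was more abundant. Per kilobase of annotated exon, Klf5 exceeded Klf4 in LPD line 20 only, at 1426 against 1202. With the longest transcript it did so in LPD lines 4 and 6 as well, so this comparison depends on the length chosen. In log2 Klf5 minus log2 Klf4, LPD line 1 stood above NPD line 51 by a small margin, and LPD line 40 stood among the NPD lines. Log2 Klf5 minus log2 Klf2 was 2.02 ± 0.56 in LPD lines and 1.27 ± 0.30 in NPD lines (SD, n = 5 each). Per kilobase of annotated exon, Klf5 made up 26.3% to 45.1% of the sum of Klf2, Klf4 and Klf5 in LPD lines and 23.1% to 28.7% in NPD lines. These shares and the sum also depend on the length chosen. The sum itself was 3613 ± 318 in LPD lines and 3408 ± 413 in NPD lines (SD, n = 5 each) per kilobase, with overlapping ranges of 3161 to 3961 and 2872 to 3983. These ratios use the same values as the fold changes and were not tested.

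**Figure D3:**
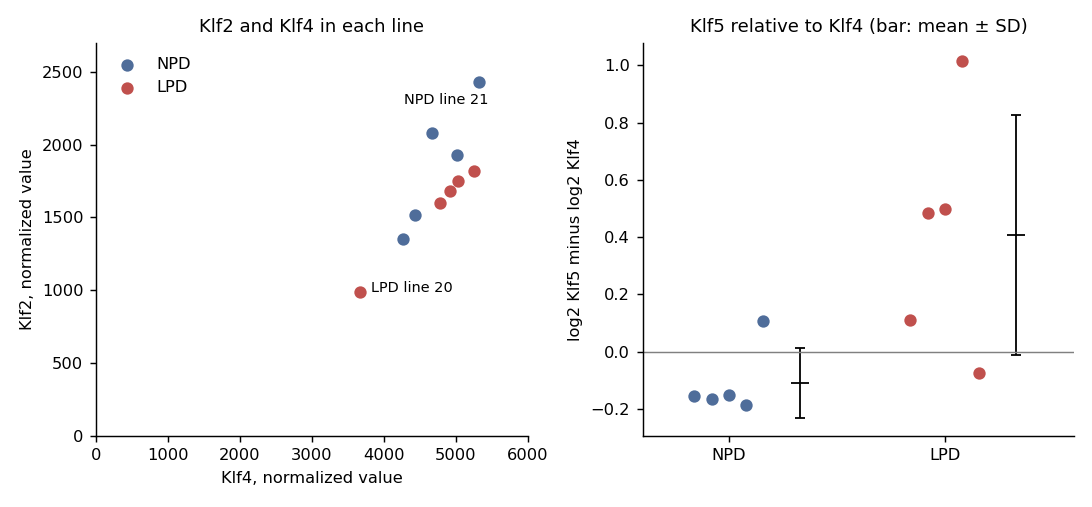
Left, normalized values of Klf4 and Klf2 in each line (both axes from 0), which rise together from LPD line 20 to NPD line 21. Right, log2 Klf5 minus log2 Klf4 in each line with the mean ± SD of each diet, where LPD line 20 is highest at 1.02 and 4 NPD lines lie between -0.19 and -0.15. The values are not set per length, so 0 does not mark equal abundance.

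Klf2 and Klf4 moved together from line to line: Pearson's r of their log2 values was 0.90 over the 10 lines (Spearman's rho 0.78), and 0.95 for deviations from the diet means. The points are whole libraries, in which both genes share the depth and the scaling. LPD line 20 was lowest and NPD line 21 highest in both genes, and without these lines r was 0.66 over the other 8. The tested genes most like Klf2 over the 10 lines were Zfp931 (r = 0.94), Nfatc4 (0.92) and Lrriq4 (0.90). Those most like Klf4 were Lrriq4 (0.96), B4galt1 (0.95) and Pheta1 (0.92). Klf5 was most like Srf (0.96), Ccnc (0.95) and Maff (0.95). These are the highest r of all tested genes, taken over both diets together. Srf, Ccnc and Maff were themselves higher in LPD, at log2 fold changes of 0.99, 0.28 and 1.56, so their r includes the diet difference. Klf5 had r = -0.19 with Klf4 and -0.40 with Klf2, and without the pair of lines farthest from the median (LPD line 20 with NPD line 8 or 21) these were 0.19 and 0.07. Of the 45 pairs of Klf genes, the highest r was that of Klf6 and Klf9, at 0.92 (rho 0.84, and 0.90 within the diets), and it was 0.96 without LPD lines 1 and 6, the lines farthest from the median of Klf6.

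The promoters of these pairs that move together are shown from RefSeq (GRCm38.p6, 250 bases before to 50 bases from the gene start, 5′ to 3′ on the gene's strand). Capitals mark CACCC and GGGCGG, GC-rich and CACCC-type letters of the kind that Klf and Sp proteins bind, read on both strands and allowed to overlap. The windows are Klf2 at chr8:72318812-72319111 (plus strand), Klf4 at chr4:55532426-55532725 (minus strand), Klf6 at chr13:5861239-5861538 (plus strand) and Klf9 at chr19:23140976-23141275 (plus strand).
Klf2: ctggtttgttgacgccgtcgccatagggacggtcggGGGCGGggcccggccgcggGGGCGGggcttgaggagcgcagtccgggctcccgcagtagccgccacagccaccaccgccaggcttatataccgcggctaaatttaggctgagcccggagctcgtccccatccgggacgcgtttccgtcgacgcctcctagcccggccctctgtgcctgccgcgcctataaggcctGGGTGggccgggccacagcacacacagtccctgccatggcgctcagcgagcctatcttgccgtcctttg
Klf4: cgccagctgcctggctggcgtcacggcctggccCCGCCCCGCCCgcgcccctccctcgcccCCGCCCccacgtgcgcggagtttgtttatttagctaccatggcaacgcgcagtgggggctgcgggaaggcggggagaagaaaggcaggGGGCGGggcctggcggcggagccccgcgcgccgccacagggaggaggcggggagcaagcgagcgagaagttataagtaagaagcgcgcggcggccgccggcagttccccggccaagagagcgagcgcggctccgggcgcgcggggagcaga
Klf6: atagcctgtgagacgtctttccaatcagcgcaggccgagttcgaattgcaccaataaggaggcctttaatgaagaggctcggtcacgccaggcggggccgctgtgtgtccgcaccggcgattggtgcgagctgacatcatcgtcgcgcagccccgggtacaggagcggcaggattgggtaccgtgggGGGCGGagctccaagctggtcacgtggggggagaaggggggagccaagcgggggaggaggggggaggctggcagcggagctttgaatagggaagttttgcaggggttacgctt
Klf9: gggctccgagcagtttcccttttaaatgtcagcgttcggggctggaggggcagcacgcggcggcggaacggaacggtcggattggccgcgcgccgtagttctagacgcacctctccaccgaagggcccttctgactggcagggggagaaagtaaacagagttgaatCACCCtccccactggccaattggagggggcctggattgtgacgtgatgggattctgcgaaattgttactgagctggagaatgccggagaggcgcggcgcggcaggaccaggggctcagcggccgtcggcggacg
Of the 10 Klf genes, 7 had a window among the 32851 RefSeq windows of this length, and Klf5, Klf10 and Klf16 were not matched. CACCC was found in 5 of the 7 windows and in 57.5% of all windows, and GGGCGG in 6 of the 7 and in 35.7% of all. The Klf4 window held 4 GGGCGG matches and no CACCC, the Klf2 window 2 and 1, the Klf6 window 1 and none, and the Klf9 window none and 1. The Klf windows shown were GC-rich, with 69.3% G and C in Klf2, 74.3% in Klf4, 63.0% in Klf6 and 63.3% in Klf9, against a median of 52.7%. Of the other motifs searched on both strands, the E-box CACGTG stood in the Klf4 window (bases -182 to -177 from the start) and in the Klf6 window (-43 to -38), and in 7.15% of all windows. A MEF2 box, CTAAATTTAG, stood in the Klf2 window at -118 to -109 and such a box in 3.19% of all windows. TGANTCA, searched with any base at N, stood in the Klf9 window as TGAATCA at -89 to -83, overlapping its CACCC, and in 7.81% of all. The letters TGACGTCA, TTCCNGGAA and a CArG box were in none of the 7 windows and in 1.79%, 1.15% and 1.63% of all windows. A match is a description of the letters, and binding was not measured.

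Klf6 and Klf7 are closely related activators, and Klf6 is best known as a growth-restraining factor and an early-response gene in injured tissue. Klf6 (chromosome 13, 5861482 to 5870394, plus strand) had normalized values of 2125, 1835, 2124, 1950 and 974 in the LPD lines and 1096, 1113, 774, 1016 and 817 in the NPD lines. LPD lines 1, 4, 6 and 20 all had at least 1835 while no NPD line passed 1113, and LPD line 40 fell inside the NPD range. The mean was 1802 ± 479 in LPD lines and 963 ± 158 in NPD lines (SD, n = 5 each), a log2 fold change of 0.86 ± 0.20 (SE), or 1.82-fold. The exact permutation test gave p = 0.0317 (two-sided), the exact Mann-Whitney test p = 0.0556, and limma gave an adjusted p of 0.435 across the table. Without LPD line 40 the log2 fold change was 1.07 ± 0.12 (SE) with an adjusted p of 0.00467 (limma). Line 40 was the lowest LPD line for Klf6, so the rise follows from leaving it out and is not independent evidence. Over all alternatives the adjusted p ran up to 0.999. Without LPD line 4 and NPD line 15 the log2 fold change was 0.90. By likeness, and chosen after its values were seen, Klf6 was nearest to Dusp8 (r = 0.98), Amotl2 (0.96) and Akap2 (0.95) over the 10 lines. Dusp8, Amotl2 and Akap2 were also higher in LPD, at log2 fold changes of 1.94, 1.15 and 0.53, so their r includes the diet difference.

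Klf7, a factor of developing neurons, was the least abundant of the 10 and varied most between lines. Its normalized values on chromosome 1 (64029447 to 64122282, minus strand) were 93.1, 293, 170, 262 and 68.4 in the LPD lines and 158, 199, 126, 162 and 84.6 in the NPD lines. LPD lines held both the highest and the lowest values, 4.29-fold apart, so the diets overlapped fully. The means were 177 ± 99.6 in LPD lines and 146 ± 42.8 in NPD lines (SD, n = 5 each), with a log2 fold change of 0.13 ± 0.38 (SE, p = 0.794 by two-sided exact permutation). The value became 0.41 on leaving out LPD line 40 and -0.11 on leaving out LPD line 4, the line with the fewest reads and the highest Klf7 value. The annotated genes Gm26649 and Gm13748 overlap Klf7 on the other strand. The strand setting is not given in the sources used here, and whether reads were shared between them was not tested.

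Klf9, Klf10, Klf13 and Klf16 recruit Sin3a and mainly repress their targets. Klf9, a gene induced by thyroid and glucocorticoid hormones, lies on chromosome 19 (23141226 to 23168134, plus strand) and had 3961, 4128, 3786, 4392 and 2750 in the LPD lines and 3369, 3353, 2855, 3006 and 2812 in the NPD lines. Again LPD lines 1, 4, 6 and 20 lay above every NPD line, and LPD line 40 lay below every NPD line. The mean was 3803 ± 630 in LPD lines and 3079 ± 267 in NPD lines (SD, n = 5 each). The log2 fold change of 0.29 ± 0.12 (SE) gave p = 0.0635 by the exact permutation test (two-sided), and 0.0313 unadjusted and 0.952 adjusted by limma. Without LPD line 40 it was 0.40 ± 0.09 (SE) with an adjusted p of 0.152 (limma), the lowest over the alternatives, which reached 1.000. Here too line 40 was the lowest LPD line, so the rise follows from leaving it out.

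Klf10, the TGF-beta inducible early gene, lies on chromosome 15 (38291463 to 38300706, minus strand). It had normalized values of 884, 945, 1173, 1731 and 1102 in the LPD lines and 643, 922, 1341, 999 and 1045 in the NPD lines. LPD line 20 was the highest and NPD line 8 the lowest, and the other lines were mixed. The means of 1167 ± 336 in LPD and 990 ± 251 in NPD (SD, n = 5 each) gave a log2 fold change of 0.23 ± 0.20 (SE, p = 0.381 by two-sided exact permutation), which was 0.08 without LPD line 20.

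Klf13 (chromosome 7, 63886351 to 63938915, minus strand), known from T cells and heart, had 1205, 1032, 1024, 911 and 835 in the LPD lines and 1084, 1214, 905, 1030 and 845 in the NPD lines. Its diet means, 1001 ± 140 in LPD and 1016 ± 146 in NPD (SD, n = 5 each), differed by a log2 fold change of -0.02 ± 0.12 (SE, p = 0.841 by two-sided exact permutation). Klf16 (chromosome 10, 80567124 to 80577321, minus strand), a repressor related to Klf9 and Klf13, had 825, 810, 731, 1211 and 887 in the LPD lines and 810, 1062, 976, 914 and 871 in the NPD lines. LPD line 20 was the highest line for Klf16 and LPD line 6 the lowest. The means were 893 ± 187 in LPD and 926 ± 96.7 in NPD (SD, n = 5 each), with a log2 fold change of -0.07 ± 0.13 (SE, p = 0.643 by two-sided exact permutation). The sign of both genes turned under other settings, Klf13 to 0.05 without NPD line 15 and Klf16 to 0.06 with depth as a covariate. Klf16 was at -0.18 without LPD line 20 and at -0.0028 without LPD line 6. E030018B13Rik, a protein-coding gene on the other strand, overlaps Klf13, and the strand setting is not given in the sources used here.

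Klf3, a repressor that works through the corepressor Ctbp, lies on chromosome 5 (64803388 to 64832901, plus strand). The LPD lines had 2689, 3015, 2453, 3203 and 2878 and the NPD lines 2539, 2445, 3106, 1970 and 2463. LPD line 20 was above every NPD line, and NPD lines 15 and 36 were below every LPD line. The mean was 2848 ± 290 in LPD lines and 2505 ± 405 in NPD lines (SD, n = 5 each), with a log2 fold change of 0.19 ± 0.12 (SE, p = 0.159 by two-sided exact permutation), which was 0.11 without NPD line 36. Gm20033 on the other strand and C230096K16Rik on the same strand overlap Klf3 in the annotation, and neither is in the table.

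**Figure D4:**
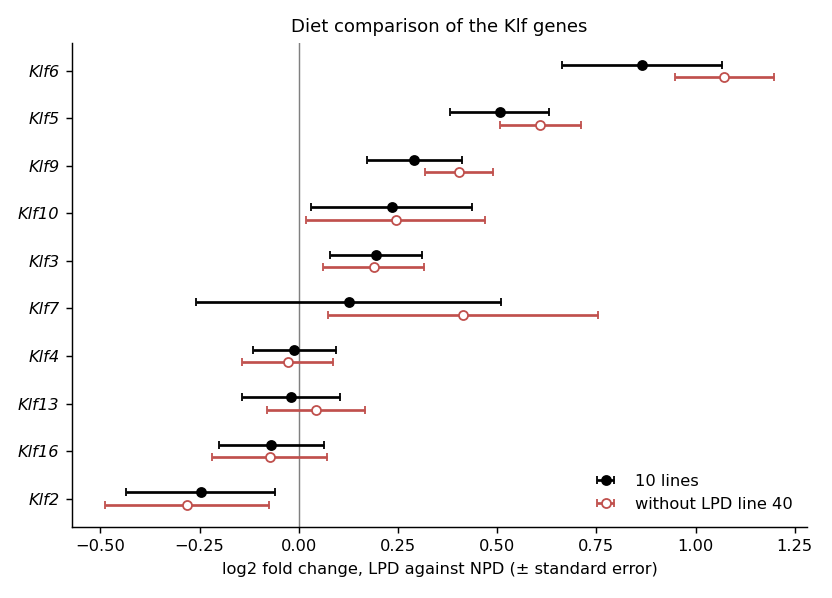
Log2 fold change of LPD against NPD (± standard error from limma) for each Klf gene, with all 10 lines (black) and without LPD line 40 (red, open). Klf6, Klf5 and Klf9 lie farthest above 0 and move further up without that line, to 1.07, 0.61 and 0.40. LPD line 40 was the lowest LPD line in these genes, so the rise follows from leaving it out.

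In Klf5, Klf6 and Klf9, line 40 was the lowest LPD line. With all lines the diets overlapped in each of the 10 Klf genes, where 1.02% of all tested genes had no overlap. No overlap with LPD above NPD was found in 0 of the 10 and in 0.523% of all genes. Without LPD line 40, Klf5, Klf6 and Klf9 had no overlap, 3 of 10, where 2.72% of all tested genes did. Since line 40 was the only LPD line to overlap NPD in these genes, the separation follows from leaving it out and was not tested. Leaving out any other line, or LPD line 4 and NPD line 15 together, left no Klf gene without overlap. Without LPD line 40, 40 genes in all passed an adjusted p of 0.1 (limma), Klf5 and Klf6 among them. LPD lines 40, 4 and 6 held 11241508, 5808295 and 12425151 read equivalents, fewer than any NPD line. With depth as a covariate the log2 fold changes were 0.53 for Klf5, 0.98 for Klf6 and 0.34 for Klf9, each with an adjusted p of 0.999 (limma). The part of depth in these values was not tested.

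LPD line 20 stood at an end of the range in several members. It held the lowest values of Klf2 and Klf4 and the highest of Klf3, Klf5, Klf9, Klf10 and Klf16 among the 10 lines. The pooled SD of log2 values within the diets was lowest for Klf4, at 0.17, a value that 76.3% of all tested genes exceeded. Klf3 and Klf13 followed at 0.20, Klf9 at 0.21, Klf5 and Klf16 at 0.22, Klf2 at 0.35, and Klf6 and Klf10 at 0.38. Klf7 had 0.72, which only 10.4% of the tested genes exceeded. The pair with the most opposite course was Klf10 and Klf13, with r = -0.56 (rho -0.76, n = 10 lines), followed by Klf4 and Klf16 at -0.52, and without LPD line 20 and NPD line 8 these were -0.66 and -0.11.

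**Figure D5:**
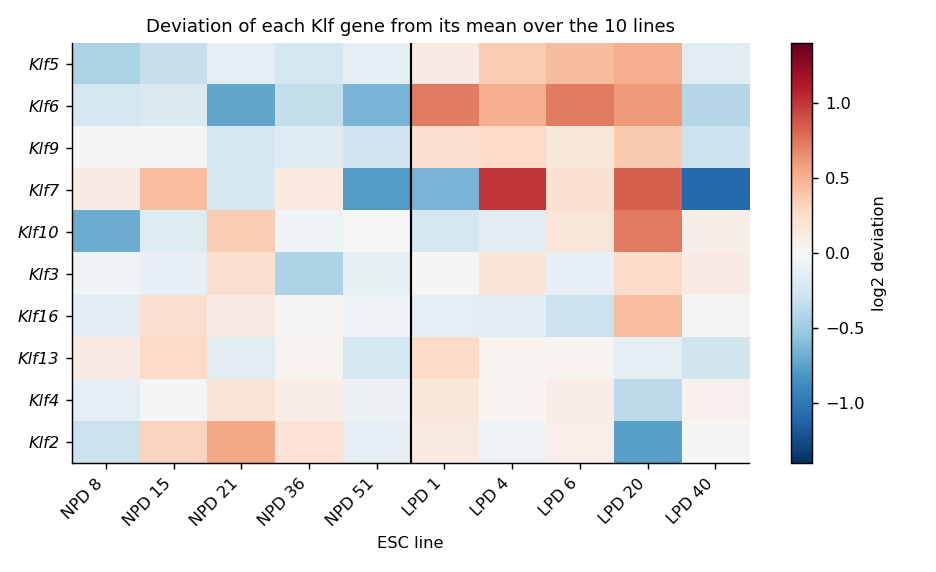
Deviation of each Klf gene from its mean over the 10 lines (log2 scale, red above and blue below) in the NPD lines, left of the black bar, and the LPD lines, right of it. Klf5, Klf6 and Klf9 are red in LPD lines 1, 4, 6 and 20 and blue in LPD line 40, and Klf2 and Klf4 are bluest in LPD line 20.

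The rest of the family was described from a list of 17 other Klf and Sp genes, of which 16 were in the table and 11 were tested. Of the 11, 6 were higher and 5 lower in LPD, with a median log2 fold change of 0.02, and 2 had an unadjusted p under 0.05 (limma), both lower. Sp6, a factor of teeth and skin, had 131 ± 21.4 in LPD lines and 184 ± 35.3 in NPD lines (SD, n = 5 each), a log2 fold change of -0.48 ± 0.18 (SE, p = 0.0159 by two-sided exact permutation, adjusted p 0.860 by limma). Klf8, a repressor that binds Ctbp like Klf3, had 191, 204, 201, 240 and 142 in the LPD lines and 185, 417, 191, 433 and 394 in the NPD lines. NPD lines 15, 36 and 51 were far above the rest, and the log2 fold change was -0.65 ± 0.26 (SE, p = 0.119 by two-sided exact permutation). Klf8 is X-linked, and NPD line 15 is the line whose median X-linked gene was raised. Klf11, the closest relative of Klf10, had 1318 and 1162 in LPD lines 1 and 4 but 471 to 573 in the other LPD lines and 489 to 698 in the NPD lines, with a log2 fold change of 0.33. The others lay at 0.50 for Sp4, 0.23 for Sp8, 0.22 for Klf17, 0.05 for Klf12, 0.02 for Sp3, -0.07 for Sp1, -0.12 for Sp2 and -0.19 for Klf15 on the log2 scale, none with an unadjusted p under 0.05. Klf1, Klf14, Sp5, Sp7 and Sp9 did not pass the filter on low values, and Klf18 was not matched.

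Of the pluripotency partners of Klf2, Klf4 and Klf5, Prdm14 was set apart most between the diets. Of 16 naive pluripotency genes, 5 were higher and 11 lower in LPD, with a median log2 fold change of -0.07, and 1 had an unadjusted p under 0.05. Prdm14, a repressor of differentiation genes in naive cells, had 242, 236, 299, 69.2 and 217 in the LPD lines and 265, 401, 336, 350.5 and 260 in the NPD lines. Prdm14 was lowest in LPD line 20, the line with the lowest Klf2 and Klf4, and its log2 fold change was -0.73 ± 0.33 (SE, p = 0.0397 by two-sided exact permutation, adjusted p 0.987 by limma). Without LPD line 20 it was -0.37. Sox2, the partner of Oct4, was at -0.16, and Zfp42, a marker of naive cells, at 0.11, and neither passed that threshold.

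Genes of signalling pathways linked to Klf4 and Klf2 were described next. Among 11 genes of LIF and Stat3 signalling, 7 were higher and 4 lower, with a median of 0.14 and none at an unadjusted p under 0.05. Those with the smallest p were Lif (log2 fold change 0.77 ± 0.37 SE), the transcription factor Stat3 (0.23 ± 0.11 SE) and the kinase and Stat3 target Pim3 (0.25 ± 0.13 SE). Among 18 tested genes of the FGF, ERK and ERK5-Mef2 pathways, 6 were higher and 12 lower, with a median of -0.03 and none at an unadjusted p under 0.05. The ligand Fgf4 was at -0.25, the receptor Fgfr1 at -0.15 and the ERK kinase Map2k1 at -0.14. RNA of pathway genes does not measure the activity of a pathway. By immunoblot the study reported less activated ERK in LPD lines at similar total protein, and no difference in Stat3 activation.

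No partner of Klf proteins in repression, activation or turnover had an unadjusted p under 0.05 (limma). Of 11 corepressors and coactivators, 5 were higher and 6 lower (median -0.02), and Kat2b (-0.21), Crebbp (-0.11) and Sin3a (-0.11) had the smallest p. Of 6 ligases that turn over Klf proteins, 2 were higher and 4 lower (median -0.05), and Fbxo32 (-0.46), Smurf1 and Vhl had the smallest p. Fbxo32 lay near the filter on low values, at 8.61 to 18.2 over the lines (p = 0.0397 by two-sided exact permutation). Of 10 TGF-beta and Smad genes, 5 were higher and 5 lower (median 0.03). Tgfb1, at 0.53, and Skil, a Smad corepressor, at 0.18 had the next smallest p after Smad2. Tgfb1 had 187 in LPD line 6, against 44.3 to 73.3 in the other LPD lines and 37.6 to 56.4 in the NPD lines. Smad2, a transducer of Activin and Nodal, was the only gene of that list with an unadjusted p under 0.05, at 913 ± 81.9 in LPD lines and 777 ± 44.9 in NPD lines (SD, n = 5 each), a log2 fold change of 0.23 ± 0.09 (SE, p = 0.0238 by two-sided exact permutation).

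Of 14 immediate early genes outside the family, 13 were higher and 1 lower in LPD, with a median log2 fold change of 1.44. By limma 10 had an unadjusted p under 0.05, all higher, where 2.84% of all tested genes did so. The list was chosen with earlier results of these data known, so its counts are not independent evidence. Without LPD line 4 and NPD line 15 the median was 0.82. Their summed level was 37840, 36422, 10081, 11952 and 7592 in the LPD lines and 6673 to 8783 in the NPD lines. The sum was highest in LPD lines 1 and 4, where Egr1, a transcription factor induced by growth signals, had 16051 and 15176, and Egr1 had 548 and 831 in LPD lines 6 and 20, inside its NPD range of 118 to 2188. Gene by gene, 8 of the 14 had exactly 4 LPD lines above every NPD line, as Klf5, Klf6 and Klf9 did, 1 had 5, 1 had 3, 3 had 2 and 1 had 0. At least 4 such lines were found for 3.09% of all tested genes. Atf3, a stress-induced transcription factor, had 448, 401, 322, 196 and 94.9 in the LPD lines and 41.5 to 82.5 in the NPD lines, so that LPD line 40 too was above every NPD line (log2 fold change 2.03 ± 0.38 SE, p = 0.00794 by two-sided exact permutation, adjusted p 0.290 by limma). Dusp1, a MAPK phosphatase, was at 0.82 ± 0.20 (SE) and Nr4a1, a nuclear receptor, at 0.89 ± 0.24 (SE). The part of these genes in the Klf values was not tested.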

How the data were processed

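RNA sequencing of 10 ESC lines was analysed, and each line was 1 replicate in a group taken from its title. According to the methods and the submitters' processing notes, the authors trimmed reads with cutadapt, quantified transcripts of GRCm38 (mm10) with Salmon and tested transcripts with sleuth 0.30.0. The table the authors deposited holds 1 normalized signal per gene and line, an estimated count whose file name points to DESeq2. The way transcript values became gene values, and the strand setting, are not given in the sources used here. Summing transcripts could hide changes confined to 1 isoform.

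Values were taken as log2(value + 1), and genes with a mean of at least 10 entered limma 3.58.1 under R 4.3.3 (mean-variance trend, no covariate, Benjamini-Hochberg over all 14354 genes, call at an adjusted p under 0.1). This scale understates changes of low genes. Single genes were also tested by exact permutation over 252 assignments. Read equivalents are a line's total divided by the value of 1 read, found in 4269 genes with 1 transcript. Over all genes 66.0% to 72.2% of low values were whole multiples of it (tolerance 0.15), so no count model was used. Positions come from GENCODE M21, and other steps used scipy 1.17.1, pandas 2.3.3, matplotlib 3.10.9 and numpy 2.4.6 (Python 3.11.15).

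Genes named are the 10 Klf genes, every other Klf and Sp gene tested, the 3 genes with the smallest unadjusted p of each other list, and the 3 genes most like Klf2, Klf4 and Klf5. Chosen after their values were seen were the 3 genes most like Klf6, Egr1, Col1a1 and Fn1, and markers at 0 are named whatever their p. Of the marker lists only such genes are named. The members, lists and tests were chosen with earlier results of these data known. Alternatives were other pseudocounts, filters, scalings, variance models, weights and covariates, an exact Mann-Whitney test, another gene length, and lines left out.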

Additional observations from a re-analysis of the deposited data

Results flagged for a closer look

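In each group of 5 lines, the highest and the lowest line were compared with the nearest other line, for 60 groups (10 Klf genes, 11 other Klf and Sp genes, and 9 ratios, sums and shares, in each diet). A line was set apart where its gap, divided by the range of the group, passed 0.71 (Dixon). Chance gives this in about 1 of 20 groups, and it was found in 4 of 60, near that rate. The ratios, sums and shares reuse the gene values, so the groups are not independent. Klf2 in LPD line 20 had a normalized value of 984.6, where the other LPD lines had 1601 to 1819. In the same line log2 Klf4 minus log2 Klf2 was 1.895, against 1.52 to 1.578 in the other LPD lines. Klf6 in LPD line 40 had 974.2, where the other LPD lines had 1835 to 2125. Log2 Klf5 minus log2 Klf4 was 0.1059 in NPD line 51, against -0.1861 to -0.1513 in the other NPD lines.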

How the results depend on the processing

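For the 10 Klf genes, 113 of 120 values under alternatives kept their direction and their side of the threshold, as did 88 of 100 with a line left out. Other filters, other variance models and a first component covariate leave the log2 fold change unchanged, so they could not turn a direction. No Klf gene was called with all lines, so these counts do not measure how stable a call is. Array weights gave 1 gene called over all genes, a Klf4 log2 fold change of 0.0041 and a Klf13 of 0.062. Depth as a covariate gave -0.035 for Klf7, 0.0074 for Klf13 and 0.064 for Klf16. Leaving out LPD line 4 and NPD line 15 gave 0.034 for Klf13, 0.011 for Klf16 and a median of -0.084 for the other Klf and Sp genes, which was -0.072 with a mean of at least 100. With no filter, 549 genes were lower in LPD at an unadjusted p under 0.05. The Klf6 Mann-Whitney p was 0.0556. With the longest transcript, levels per kilobase were 1597 for Klf5, 513 for Klf3, 354 for Klf10 and 158 for Klf13. The cause was not tested in these cases.

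With each line left out in turn, between 0 and 40 genes were called, with 40 without LPD line 40. Log2 fold changes ranged from -0.051 to 0.078 for Klf4, from 0.44 to 0.61 for Klf5, from 0.79 to 1.07 for Klf6, from -0.11 to 0.41 for Klf7 and from -0.089 to 0.048 for Klf13. Klf5 and Klf6 were called only without LPD line 40, the lowest LPD line in both. The median of the corepressors and coactivators ranged from -0.078 (without LPD line 20) to 0.0071, and 0 to 3 Klf genes had no overlap. No paired analysis was possible because the LPD and NPD lines share no replicate number. LPD line 4 had the fewest reads, which limits low genes such as Klf7 most.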
